A study of Mus musculus with 15 samples.

Results

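Amino acids cross cell membranes through carrier proteins of several solute carrier (Slc) families, and the transcripts of 7 of these families, Slc1a, Slc3a, Slc6a, Slc7a, Slc36a, Slc38a and Slc43a, were followed here in mouse liver. All rows whose symbol begins with a family name followed by a number were taken, leaving out Slc7a11, which gave 63 of the 24411 genes in the files. Of these, 41 had 10 or more counts summed over 15 libraries and were kept, and 22 did not reach that minimum. The kept members comprise 40 carrier genes or their subunits and Slc7a6os, which the naming rule takes in although it is a gene on the opposite strand beside Slc7a6 and not a carrier.

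Liver poly(A) RNA was sequenced in 4 control libraries labelled TdTomato (a red fluorescent reporter protein, called wild type in the study's design), 6 libraries labelled LATS KO and 5 labelled Yap OE, called TdTomato, LATS_KO and YAP_OE here. The kinases LATS1 and LATS2 phosphorylate YAP and keep it out of the nucleus, where it coactivates transcription, and the study's title concerns inflammatory monocytes and YAP-driven proliferation. The strain, age and sex of the mice, the means and cell type of the deletion or overexpression, and the time after it are not given in the sources used here, since the labels' extraction text describes mice of another design. The labels do not tell whether the libraries of a group stem from different mice, so every p-value rests on the spread among these libraries alone, which may be technical.

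The carrier families divide the work. SLC7 light chains of the heteromeric carriers reach the membrane only with a heavy chain, SLC3A1 or SLC3A2, while the cationic carriers of SLC7 (CAT1, CAT2) work alone. System A and system N carriers of SLC38 bring small neutral amino acids and glutamine into hepatocytes with sodium, SLC1 holds glutamate and neutral exchangers, and SLC6 holds sodium- and chloride-coupled carriers for taurine, creatine, GABA, betaine and amino acids. In liver these proteins feed gluconeogenesis, urea synthesis, glutathione synthesis and the glutamine cycle between periportal and pericentral hepatocytes.

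The sequences just before the gene starts are shown for 5 members whose transcripts differed from the controls, 3 higher and 2 lower, because these are the DNA regions beside the transcripts counted. They are RefSeq sequence of GRCm38.p6 (mm10), written 5′ to 3′ on the strand of the gene, and bases inside the annotated gene were left out. Capitals mark GGAATG, the reverse complement of CATTCC, the short sequence bound by TEAD factors, the DNA-binding partners of YAP.
Slc7a6, chr8:106168604-106168853, plus strand: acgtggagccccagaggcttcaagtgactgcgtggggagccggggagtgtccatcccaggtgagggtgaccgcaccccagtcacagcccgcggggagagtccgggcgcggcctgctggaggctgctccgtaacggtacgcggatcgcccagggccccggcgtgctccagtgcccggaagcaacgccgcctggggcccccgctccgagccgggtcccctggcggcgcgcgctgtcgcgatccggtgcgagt
Slc7a8, chr14:54781947-54782136, minus strand: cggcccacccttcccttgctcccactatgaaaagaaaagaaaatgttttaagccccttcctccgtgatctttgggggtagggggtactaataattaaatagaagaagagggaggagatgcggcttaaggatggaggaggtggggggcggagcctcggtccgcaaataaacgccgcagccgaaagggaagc
Slc6a20b, chr9:123632566-123632788, minus strand: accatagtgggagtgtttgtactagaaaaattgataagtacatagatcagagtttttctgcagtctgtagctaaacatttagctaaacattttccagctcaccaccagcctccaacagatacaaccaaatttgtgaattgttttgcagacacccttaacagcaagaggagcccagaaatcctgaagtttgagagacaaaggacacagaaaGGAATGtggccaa
Slc6a13, chr6:121300038-121300226, plus strand: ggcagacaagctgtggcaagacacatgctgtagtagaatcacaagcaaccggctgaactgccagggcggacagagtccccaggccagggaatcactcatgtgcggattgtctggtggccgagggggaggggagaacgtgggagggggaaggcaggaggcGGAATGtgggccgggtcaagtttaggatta
Slc3a1, chr17:85028097-85028346, plus strand: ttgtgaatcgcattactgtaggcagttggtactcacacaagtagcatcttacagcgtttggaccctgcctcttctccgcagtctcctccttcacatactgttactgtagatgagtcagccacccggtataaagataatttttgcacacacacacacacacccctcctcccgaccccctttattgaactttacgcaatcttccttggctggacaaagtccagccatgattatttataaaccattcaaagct
Of the 41 members, 28 had a promoter window of 300 bases (250 before and 50 after the start) in RefSeq, 45 windows in all. CATTCC, searched on both strands, was in 10 windows of 9 members, and 14.7% of all 32851 windows in the table hold it. In Slc6a20b and Slc6a13 the match begins 40 and 91 bases before the RefSeq start. TGATGNAA, the amino acid response element read by ATF4 and its partners, was in 3 windows of 2 members, Slc1a4 and Slc7a7, and in 3.97% of all windows. A match describes these letters only.

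Depth ranged from 6166680 to 28225360 gene counts per library. TdTomato 1 and LATS_KO 3 stood apart, with 78.5% and 89.9% of their reads unmapped against 2.53% to 16.7% in the other 13 libraries, and with 8501 and 9710 genes detected against 13372 to 15641. Of the 32 members with enough counts to be tested, 13 had 0 counts in TdTomato 1 and 12 in LATS_KO 3, against 0 to 3 in any other library. Each comparison was therefore repeated without these 2 libraries, called the reduced fit. Values of a group are given in replicate order throughout. Lats1 had 0 counts in both libraries that stood apart. TdTomato 2 to 4 had 44.5, 46 and 28.7 CPM of it (counts scaled to library size, with TMM factors), and the other 5 LATS_KO libraries 14.5, 10.5, 27.4, 18.1 and 22.3 CPM. Its difference was −0.94 ± 1.00 (log2 fold change ± SE, adjusted p = 0.62), and −1.10 in the reduced fit, which called it lower (adjusted p = 0.025). Lats2 was at 29.2, 41, 7.67, 16.9, 17.3 and 14 CPM in LATS_KO and at 0, 19.6, 19.1 and 17.4 CPM in the controls (a difference of 0.58 ± 0.75, adjusted p = 0.7). Counts over a whole gene do not check a deletion of part of it. Yap1 rose by a log2 difference of 0.82 ± 0.17 in YAP_OE (adjusted p = 0.0043). Markers of hepatocytes were the most abundant of all marker lists in every group.

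In control liver the carrier transcripts were dominated by 5 genes. Per kilobase of exon, Slc38a4 (system A, SNAT4) was at 331 ± 104 CPM per kb (SD, n = 4), Slc38a3 (system N glutamine carrier, SNAT3) at 282 ± 128, Slc6a13 (GAT2, a carrier of GABA and taurine) at 98.6 ± 33.4, Slc3a1 (the heavy chain rBAT) at 88.1 ± 39.9 and Slc7a2 (the cationic carrier CAT2) at 85.5 ± 47.9. The ranges of Slc38a4 and Slc38a3 overlapped, those of Slc38a3 and Slc6a13 did not, and Slc6a13, Slc3a1 and Slc7a2 could not be ordered beyond their spread. The range of Slc7a2 did not overlap that of Slc38a10 (a widely expressed SLC38 member), the next in mean level at 24 ± 5.66, whose range overlapped that of Slc6a12 (the betaine and GABA carrier BGT1) at 21.9 ± 8.98. Slc38a2 (system A, SNAT2) at 21.9 ± 16.2, whose range of 6.21 to 44.3 reached into that of Slc7a2, Slc6a6 (the taurine carrier TauT) at 12 ± 8.09 and Slc3a2 (the heavy chain 4F2hc) at 9.11 ± 3.48 CPM per kb followed.

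This composition differed between groups. The 5 leading genes of the controls made up 87.7% to 88.1% of the summed CPM per kb of all kept members in TdTomato, 52.6% to 86.5% in LATS_KO and 61.9% to 69.6% in YAP_OE. The sum itself was 540 to 1394 CPM per kb in TdTomato, 275 to 1178 in LATS_KO and 366 to 503 in YAP_OE, so the YAP_OE libraries all lay below the lowest control. Slc6a6 took 0.265% to 1.62% of the sum in TdTomato, 1.21% to 17.5% in LATS_KO and 7.79% to 12.2% in YAP_OE, and moved from rank 9 in TdTomato to rank 5 in LATS_KO and rank 3 in YAP_OE. Slc3a1 moved the other way, from rank 4 to 6 and 13. These shares are a description without a test.

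**Figure D1:**
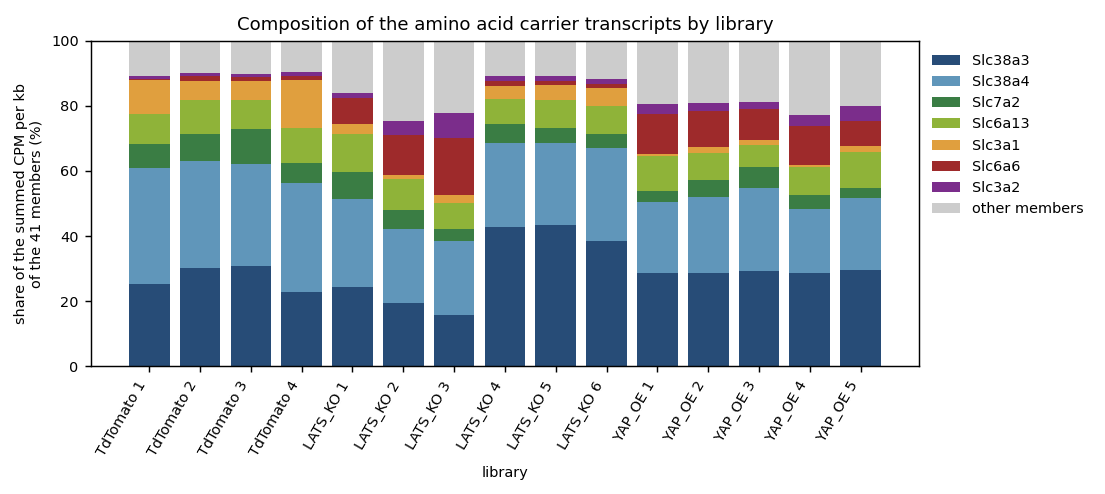
Share of each carrier in the summed CPM per kb of exon of the 41 members (percent, bars stacked to 100) for each of the 15 libraries. The 5 genes that lead in TdTomato fill 87.7% to 88.1% of each TdTomato bar and 61.9% to 69.6% of each YAP_OE bar, and within LATS_KO the bars of replicates 1 to 3 differ from those of 4 to 6.

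In LATS_KO against TdTomato, 5 of the 32 tested members were higher and none was lower (15.6%, against 11.0% of all 13055 genes tested in either direction, 10% higher and 0.973% lower). The higher members were Slc7a6, Slc7a8, Slc38a1, Slc7a1 and Slc6a20b. Slc7a6 and Slc6a20b had enough counts for the test only with the YAP_OE libraries included. The fit of LATS_KO and TdTomato alone tested 30 members and called none. At an unadjusted p under 0.05 there were 11 members, DESeq2 called 10 higher and 1 lower, and voom called 9 higher and 3 lower. The shares of all genes at the unadjusted p, by these methods and in the fit of 2 groups were not counted. These counts therefore do not set the members apart. The median difference of the tested members was 0.46 on the log2 scale, against 0.13 for all genes. In YAP_OE against TdTomato, 6 members were higher and 5 were lower (34.4%, against 28.7% of all genes, 17.9% higher and 10.8% lower), with a median of 0.27 against 0.17. The higher ones were Slc7a6, Slc7a8, Slc38a1, Slc6a20b, Slc6a6 and Slc6a8, and the lower ones Slc3a1, Slc38a4, Slc7a2, Slc6a13 and Slc6a12. Slc7a6 and Slc6a20b, counted in the 34.4%, had enough counts for the test only through YAP_OE, the group where they were called higher. How many such genes the 28.7% holds was not counted. With RLE factors the median of all genes shifted from 0.13 to 0.21 in LATS_KO and from 0.17 to 0.34 in YAP_OE, and every member called with TMM factors was called in the same direction. Both comparisons share the 4 control libraries. In the reduced fit, 8 members were higher and none lower in LATS_KO (16.9% of all genes were called, 13.7% higher and 3.24% lower), and 9 were higher and 8 lower in YAP_OE (48.4% of all genes, 27.2% higher and 21.2% lower). The groups' libraries did not overlap for 3 of the 32 members in LATS_KO (8.55% of all genes) and for 18 in YAP_OE (41.7% of all genes).

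**Figure D2:**
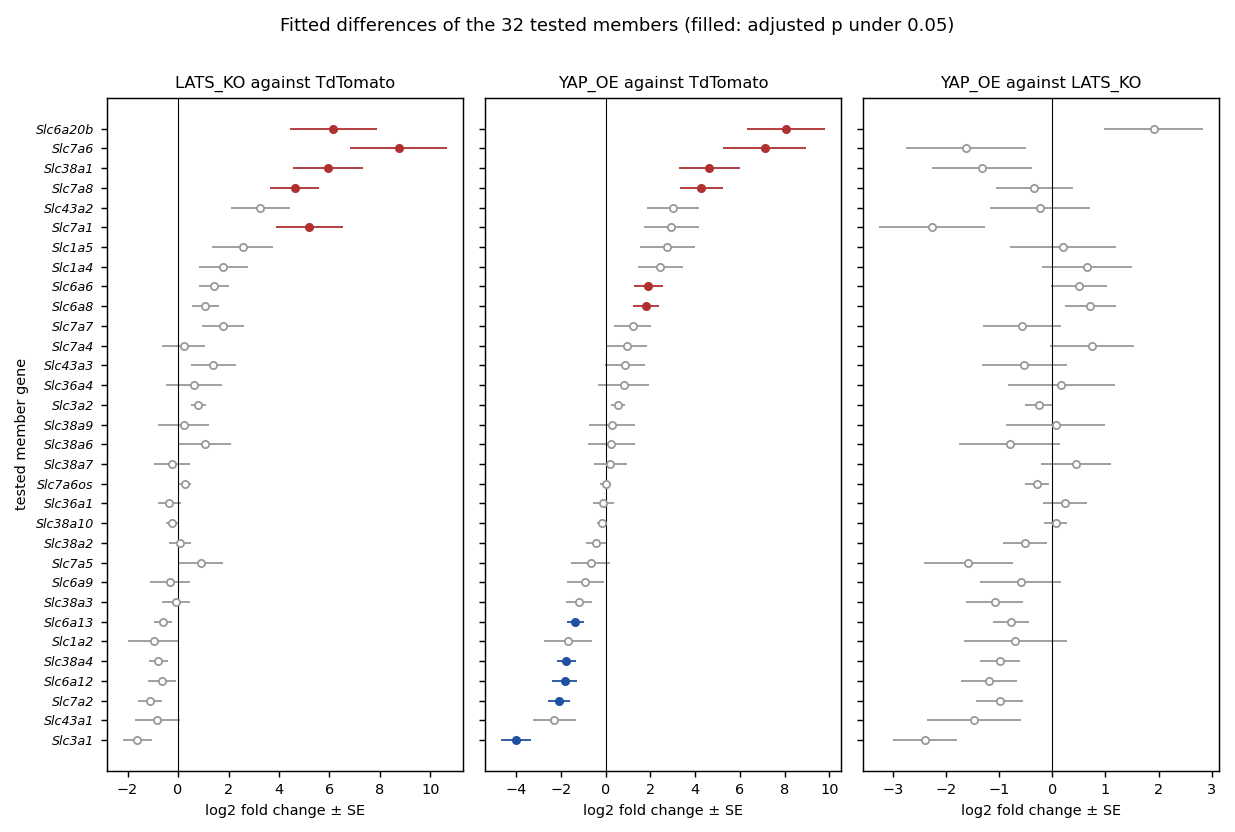
Log2 fold change with its SE for the 32 tested members (rows, ordered by the YAP_OE difference) in each of the 3 comparisons, with filled points for an adjusted p under 0.05. LATS_KO has 5 filled points to the right of 0, YAP_OE has 6 to the right and 5 to the left, and the comparison of YAP_OE with LATS_KO has none.

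The heavy chains were examined first. Slc3a1 (chromosome 17, 85028376 to 85064236, mm10) encodes rBAT, the partner of the cystine and dibasic amino acid carrier SLC7A9. It had 130, 151, 189 and 331 CPM in the 4 controls, 37.4, 10.5, 15.9, 107, 115 and 108 CPM in the 6 LATS_KO libraries and 6.15, 17.3, 17.1, 6.86 and 14.9 CPM in the 5 YAP_OE libraries. Every YAP_OE library lay below every control, and so did every LATS_KO library, where replicates 1 to 3 were lower than 4 to 6. It fell by 4.01 on the log2 scale in YAP_OE (SE 0.67, adjusted p = 0.0019), the largest fall among the tested members. The difference in LATS_KO, −1.61 ± 0.58, missed the threshold (adjusted p = 0.09), and DESeq2 called Slc3a1 lower there. Slc7a9 itself had 7 counts over all 15 libraries, and Slc7a13, another light chain that pairs with rBAT, had 14.

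Slc3a2 encodes 4F2hc (CD98), the heavy chain of the LAT and y+LAT carriers. The controls had 14.1, 36.7, 36.3 and 41.5 CPM, LATS_KO 29.3 to 75.2 CPM (median 55.4) and YAP_OE 46.7, 42.5, 39.8, 46.4 and 59.2 CPM. The groups overlapped, and the differences of 0.80 ± 0.29 in LATS_KO and 0.54 ± 0.30 in YAP_OE did not pass the test (adjusted p = 0.095 and 0.19). RLE factors, DESeq2 and voom called it higher in LATS_KO, and DESeq2 also in YAP_OE.

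Among the 4 tested light chains, 2 were higher in each manipulated group. Of all genes, 10% were called higher in LATS_KO and 17.9% in YAP_OE. Whether 2 of 4 exceeds these shares was not tested, and Slc7a6 had enough counts for the test only with the YAP_OE libraries included. Slc7a6 (chromosome 8, 106168857 to 106198706) encodes y+LAT2, which exchanges cationic for neutral amino acids. Its 4 control libraries held 2 counts in all, at 0, 0, 0.0794 and 0.0479 CPM. LATS_KO 1 to 6 were at 11.3, 39.9, 42.7, 0.351, 0.202 and 0.24 CPM, and YAP_OE 1 to 5 at 6.09, 4.04, 4.71, 6.68 and 3.88 CPM. Every library of both groups lay above every control, and LATS_KO 1 to 3 were above all YAP_OE libraries while LATS_KO 4 to 6 were below them. The ratio of CPM to the controls was 538 (95% counting interval 149 to 4448) in LATS_KO and 166 (45.8 to 1373) in YAP_OE, with adjusted p = 0.012 and 0.011. Without LATS_KO 2 the first ratio was 240, and without TdTomato 3 the ratios were 867 and 267. The fitted log2 difference in LATS_KO was 8.74, against 7.87 in the reduced fit and 3.00 with voom (adjusted p = 0.029 and 0.016), and in YAP_OE it was 7.10, against 7.93 with the replicate block (adjusted p = 0.018). Slc7a6os, which converges on Slc7a6 from 2.01 kb away on the minus strand and was counted by strand, stayed between 15 and 30 CPM in all 15 libraries (differences of 0.28 ± 0.24 and −0.01 ± 0.25, adjusted p = 0.52 and 0.98). Voom called Slc7a6os higher in LATS_KO.

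Slc7a8 (chromosome 14, 54722209 to 54781946) encodes LAT2, an exchanger of neutral amino acids. It measured 0, 0.11, 0.635 and 0.431 CPM among the controls, 1.52, 20.4, 3.78, 10, 3.98 and 4.57 CPM across LATS_KO 1 to 6 and 3.69, 6.19, 6.06, 7.61 and 5.57 CPM across YAP_OE 1 to 5. No library of either group overlapped the controls. The rises were 4.62 ± 0.97 in LATS_KO (adjusted p = 0.01) and 4.28 ± 0.97 in YAP_OE (adjusted p = 0.0063). The LATS_KO value was 4.00 without LATS_KO 2 and 5.24 without TdTomato 3, and the YAP_OE value was 4.89 without TdTomato 3.

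The other tested light chains were Slc7a7 and Slc7a5. Slc7a7 encodes y+LAT1 and lies 304 kb from Slc7a8 on the same strand. It was at 0, 3.59, 3.1 and 3.54 CPM in TdTomato, at 3.48 to 17.2 CPM in LATS_KO (median 8.69) and at 6.31, 4.45, 5.01, 7.08 and 6.86 CPM in YAP_OE. Its differences were 1.78 ± 0.83 and 1.21 ± 0.83 (adjusted p = 0.19 and 0.31), and DESeq2 and voom called it higher in LATS_KO. Slc7a5 encodes LAT1, the large neutral amino acid carrier of growing cells. It was at 10.8, 1.49, 0.953 and 1.77 CPM in TdTomato, at 1.68 to 25.1 CPM in LATS_KO (median 3.9, highest in LATS_KO 2) and at 4.09, 1.63, 1.46, 2.36 and 2.12 CPM in YAP_OE. The highest control was the library with 78.5% unmapped reads, and neither difference passed the test (adjusted p = 0.58 and 0.62). Summed per kilobase, the 4 light chains were at 1.34 to 2.9 CPM per kb in TdTomato, 2.47 to 24.8 in LATS_KO and 3.9 to 5.75 in YAP_OE, all YAP_OE libraries being above the highest control.

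**Figure D3:**
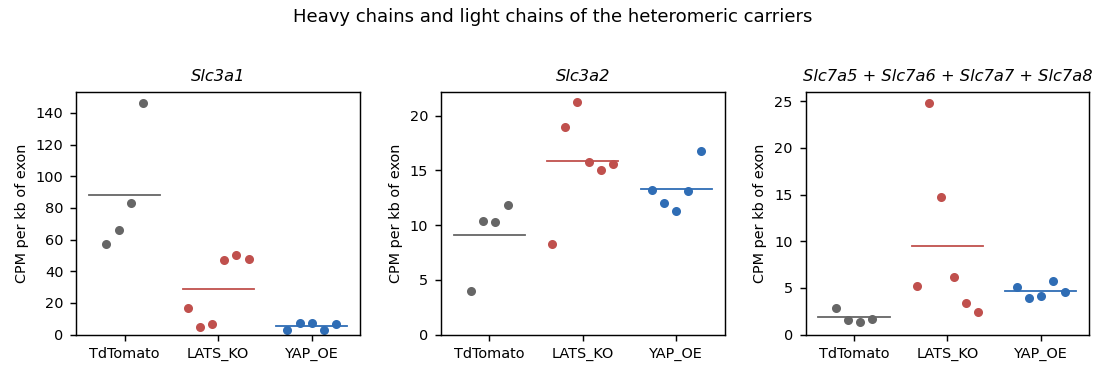
Levels in CPM per kb of exon (linear axes from 0) of the heavy chains Slc3a1 and Slc3a2 and of the 4 light chains Slc7a5, Slc7a6, Slc7a7 and Slc7a8 summed, with 1 point per library in replicate order and a line at the group mean. Slc3a1 is at 57.2 to 146 in TdTomato and 2.71 to 7.6 in YAP_OE, while the light chain sum is at 1.34 to 2.9 and 3.9 to 5.75.

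The cationic carriers CAT1 and CAT2 differed from the controls in opposite directions. With all libraries, edgeR's test called CAT1 only in LATS_KO and CAT2 only in YAP_OE, while each differed in the same direction in the other group. Slc7a1 (chromosome 5, 148327410 to 148399904), which encodes CAT1, the widely expressed arginine and lysine carrier that adult liver nearly lacks, had 0, 0.331, 0 and 0.0479 CPM in the 4 controls, 2.33, 9.67, 9.55, 1.4, 0.337 and 0.24 CPM in the 6 LATS_KO libraries and 1.08, 0.778, 0.935, 0.786 and 0.47 CPM in the 5 YAP_OE libraries. LATS_KO 6 overlapped the controls and no YAP_OE library did. It rose by a log2 difference of 5.20 ± 1.32 in LATS_KO (adjusted p = 0.021), and in YAP_OE the difference of 2.93 ± 1.23 did not pass the test (adjusted p = 0.087). DESeq2, voom, the replicate block and the fit of only the groups compared called it higher in YAP_OE. The call in LATS_KO was lost without TdTomato 3 or TdTomato 4 (adjusted p = 0.064 and 0.073), and the value was 7.25 without TdTomato 2, which held most of the control counts. It was 4.36 in the reduced fit and 2.38 with voom (adjusted p = 0.037 and 0.03).

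Slc7a2 (chromosome 8, 40862396 to 40922308), which encodes CAT2, had 360, 850, 1364 and 549 CPM in the 4 controls, 421, 238, 93, 604, 461 and 350 CPM in the 6 LATS_KO libraries and 134, 223, 294, 151 and 110 CPM in the 5 YAP_OE libraries. All YAP_OE libraries lay below the lowest control, which was TdTomato 1. It fell by 2.10 on the log2 scale in YAP_OE (SE 0.49, adjusted p = 0.0072). The difference in LATS_KO, −1.11 ± 0.46, missed the threshold (adjusted p = 0.13), and voom called Slc7a2 lower there. Slc7a4, an SLC7 member related to the CATs, was at 0 to 1.1 CPM in TdTomato, 0 to 1.14 in LATS_KO and 0.784 to 2.07 in YAP_OE and passed no test.

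System A held a member that rose and a member that fell in YAP_OE, within the same stretch of chromosome 15. Slc38a1 (96571418 to 96642913) encodes SNAT1, the system A carrier of brain and other tissues. Its controls held 3 counts in all, at 0, 0, 0.0794 and 0.0958 CPM. LATS_KO 1 to 6 were at 1.14, 11, 0, 4.08, 1.35 and 1.32 CPM, and YAP_OE 1 to 5 at 0.831, 0.852, 1.65, 1.97 and 1.02 CPM. Apart from LATS_KO 3, every library of both groups lay above the controls. The ratio of CPM was 96.7 (95% counting interval 32.9 to 470) in LATS_KO and 26.9 (9.07 to 132) in YAP_OE, with adjusted p = 0.015 and 0.019. Without TdTomato 2 both calls were lost (adjusted p = 0.054 and 0.055). The LATS_KO ratio was 41 without LATS_KO 2 and 196 without TdTomato 4, and the YAP_OE ratio was 54.6 without TdTomato 4.

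Slc38a4 (96994820 to 97055956) encodes SNAT4, the system A carrier most typical of hepatocytes. It had 817, 1573, 1865 and 1380 CPM in the 4 controls, 644, 437, 265, 1305, 1168 and 1094 CPM in the 6 LATS_KO libraries and 395, 463, 546, 316 and 341 CPM in the 5 YAP_OE libraries. YAP_OE did not overlap the controls, and in LATS_KO replicates 1 to 3 lay below all controls while 4 to 6 lay among them. It fell by 1.77 on the log2 scale in YAP_OE (SE 0.42, adjusted p = 0.0074). In LATS_KO the difference was −0.78 ± 0.39 (adjusted p = 0.23). Slc38a2, which encodes SNAT2, the amino acid-regulated member of system A, lies 44.5 kb from Slc38a1 and 295 kb from Slc38a4. It was at 54.9, 143, 392 and 183 CPM in TdTomato, 90.7 to 329 CPM in LATS_KO (median 201) and 147, 145, 146, 129 and 148 CPM in YAP_OE, with differences of 0.08 ± 0.43 and −0.43 ± 0.44 (adjusted p = 0.94 and 0.51).

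Of system N, Slc38a3 had the highest mean level per kilobase among the carriers in both manipulated groups, with a range that overlapped that of Slc38a4 in each, and Slc38a4 was above it in LATS_KO 1 to 3. It encodes SNAT3, which moves glutamine in both directions across the hepatocyte membrane. Its CPM were 725, 1790, 2261 and 1179 in TdTomato 1 to 4, 713, 456, 230, 2652, 2502 and 1829 in LATS_KO 1 to 6, and 646, 712, 777, 574 and 573 in YAP_OE 1 to 5. The LATS_KO libraries spanned both ends, with replicates 1 to 3 below all controls and 2 others above them, and the difference was −0.09 ± 0.55 (adjusted p = 0.95). In YAP_OE it was −1.18 ± 0.58 (adjusted p = 0.14), and −1.41 in the reduced fit (adjusted p = 0.028). Voom and the fit of only the groups compared also called Slc38a3 lower in YAP_OE. Slc38a5, the other system N carrier, had at most 0.221 CPM in any library and was not tested.

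**Figure D4:**
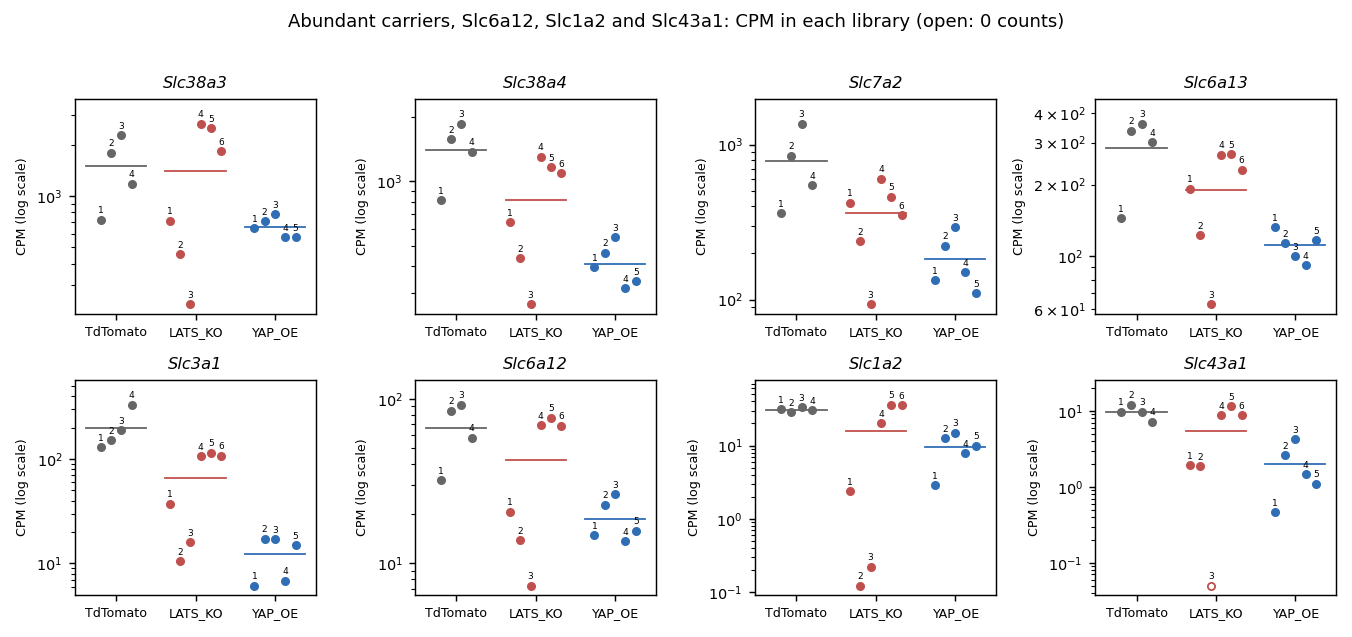
CPM on log axes for the 5 carriers that lead in control liver and for Slc6a12, Slc1a2 and Slc43a1, with 1 numbered point per library (the number is the replicate), open points for libraries with 0 counts drawn at the foot of the axis, and a line at the group mean. In YAP_OE Slc3a1 is at 6.15 to 17.3 CPM against 130 to 331 in TdTomato, and in LATS_KO replicates 1 to 3 lie below replicates 4 to 6 in each panel except that of Slc7a2, where replicate 1 lies among them.

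Slc6 held 6 tested members, of which 3 were higher and 2 lower in YAP_OE (17.9% and 10.8% of all genes). Slc6a20b, among the 3 higher, had enough counts for the test only with the YAP_OE libraries included. Slc6a6 (chromosome 6, 91684053 to 91759066), the taurine carrier, measured 12.1, 154, 156 and 84.8 CPM among the controls, 379, 471, 408, 163, 113 and 92.4 CPM across LATS_KO 1 to 6 and 439, 444, 403, 382 and 241 CPM across YAP_OE 1 to 5. Each YAP_OE library was above the highest control, and in LATS_KO replicates 5 and 6 lay among the controls. It rose by a log2 difference of 1.91 ± 0.63 in YAP_OE (adjusted p = 0.034), and in LATS_KO the difference of 1.41 ± 0.60 missed the threshold (adjusted p = 0.15). DESeq2 called Slc6a6 higher in LATS_KO. The call in YAP_OE was lost without TdTomato 4 (adjusted p = 0.085) and without YAP_OE 1, 2, 3 or 4 (0.062, 0.06, 0.055 and 0.058).

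Slc6a8 (chromosome X, 73673150 to 73682502), the creatine carrier, had a narrow control range of 8.52, 10.7, 8.5 and 9.81 CPM. LATS_KO 1 to 6 were at 42.8, 37.2, 19.3, 8.42, 6.27 and 4.75 CPM, so that replicates 1 to 3 lay above all controls and 4 to 6 below them, and YAP_OE 1 to 5 were at 33.8, 31.3, 34.4, 38.4 and 24.7 CPM. It rose in YAP_OE by 1.79 ± 0.57 (adjusted p = 0.028), and in LATS_KO the difference was 1.08 ± 0.54 (adjusted p = 0.23). Leaving out any 1 control ended the call in YAP_OE (adjusted p = 0.051, 0.055, 0.064 and 0.062 without TdTomato 1 to 4), as did leaving out YAP_OE 1 or 4 (0.051 and 0.057).

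Slc6a20b (chromosome 9, 123590800 to 123632565) is a mouse member of the SLC6A20 imino acid (proline) carriers. It had 0 counts in all 4 controls. The LATS_KO libraries had 1.41, 0.368, 0, 0.395, 0 and 0.24 CPM, and those of YAP_OE had 1.48, 1.41, 1.57, 2.89 and 0.47 CPM, so that LATS_KO 3 and 5 overlapped the controls. Against a floor of 3 counts over the 4 controls it was at least 34-fold higher in YAP_OE (221 counts, adjusted p = 0.0068) and at least 9.59-fold higher in LATS_KO (51 counts, adjusted p = 0.04). The LATS_KO bound was 5.61 without LATS_KO 1, and that call was lost in 11 of the 15 fits that left out 1 library (adjusted p of 0.052 to 0.092) and with voom (adjusted p = 0.06). Its neighbour Slc6a20a, 2.2 kb away, had 0 counts in all libraries. Reads that match both genes were not counted, and how alike the genes are was not examined, so the split between them is uncertain.

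Slc6a13 and Slc6a12 are neighbours 5.34 kb apart on chromosome 6 and both were lower in YAP_OE. Slc6a13 (121300227 to 121337733), the GABA and taurine carrier GAT2, had 145, 337, 360 and 302 CPM in the controls, 62.9 to 268 CPM in LATS_KO (median 211) and 133, 114, 100, 92.1 and 117 CPM in YAP_OE. It fell by 1.36 on the log2 scale in YAP_OE (SE 0.37, adjusted p = 0.013), with no overlap between the groups. Slc6a12 (121343076 to 121365775), the betaine and GABA carrier BGT1, was at 32.1, 84.9, 92.1 and 58 CPM in TdTomato, at 7.33 to 76.9 CPM in LATS_KO (median 44.6) and at 14.9, 22.7, 26.3, 13.7 and 15.8 CPM in YAP_OE. It fell by 1.84 (SE 0.57, adjusted p = 0.027), also without overlap. This call was lost without TdTomato 2 or 3 (adjusted p = 0.064 and 0.068) and without YAP_OE 1, 4 or 5 (0.062, 0.066 and 0.056). In LATS_KO neither passed the test (−0.59 ± 0.35 and −0.64 ± 0.54, adjusted p = 0.33 and 0.51), and voom called Slc6a13 lower there.

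Slc6a9, the glycine carrier GlyT1, was the sixth tested member of Slc6. It was at 12.5, 35.1, 43.7 and 27.8 CPM in TdTomato, 0 to 44.4 CPM in LATS_KO (median 23.8) and 11.9, 18.7, 21.9, 12.5 and 14 CPM in YAP_OE. Neither difference passed the test (adjusted p = 0.86 and 0.45), and in the reduced fit it fell by 1.17 in YAP_OE (adjusted p = 0.028). Voom also called Slc6a9 lower in YAP_OE.

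**Figure D5:**
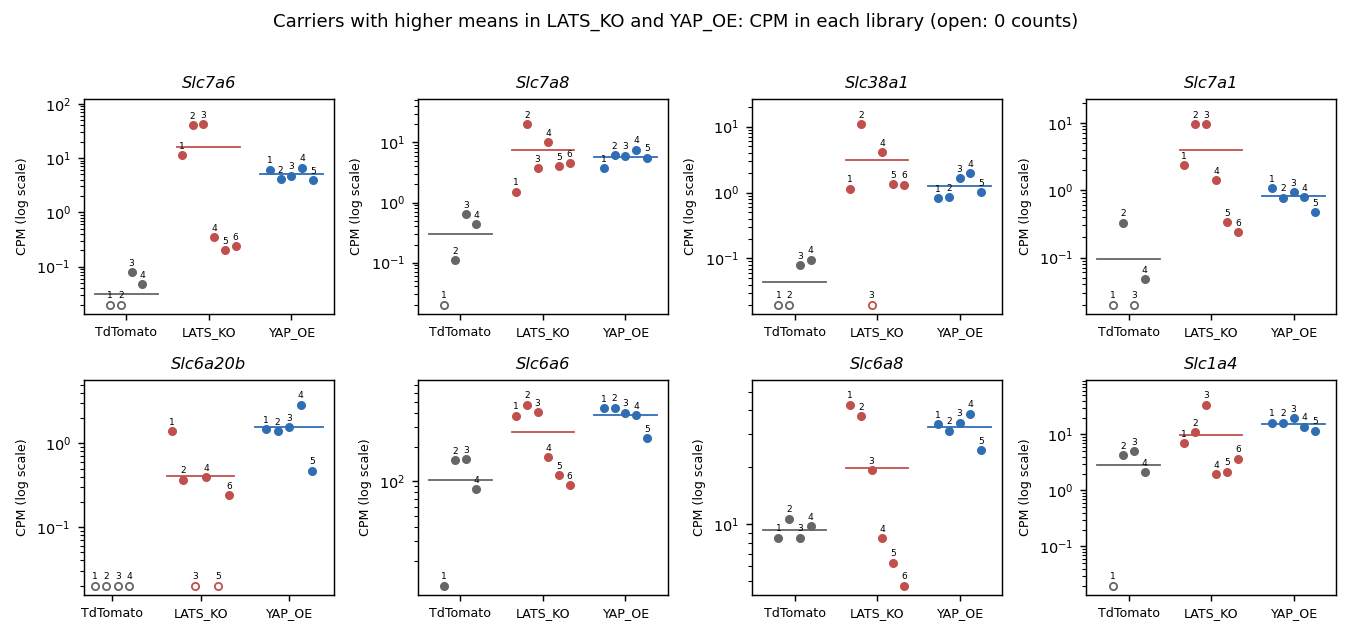
CPM on log axes for 7 members that were higher in LATS_KO or YAP_OE and for Slc1a4, which missed the test with all libraries and passed it in the reduced fit of YAP_OE, with 1 numbered point per library, open points for 0 counts drawn at the foot of the axis, and a line at the group mean. The YAP_OE points sit above all controls in each panel, and spread over 0.47 to 2.89 CPM for Slc6a20b. LATS_KO spreads over 0.202 to 42.7 CPM for Slc7a6 and 4.75 to 42.8 CPM for Slc6a8.

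None of the 3 tested Slc1 members passed edgeR's test against the controls with all libraries. DESeq2 and voom called Slc1a4 and Slc1a5 higher in YAP_OE, and DESeq2 called Slc1a5 higher in LATS_KO. Voom and the fit of only the groups compared called Slc1a2 lower in YAP_OE, and that fit also called Slc1a5 higher there. Slc1a2, the glutamate carrier GLT-1 that the liver uses around the central vein, had a narrow control range of 31.1, 28.4, 33 and 30.5 CPM. The LATS_KO libraries had 2.38, 0.123, 0.222, 20.3, 36 and 35.3 CPM, and the YAP_OE libraries 2.89, 12.7, 14.9, 7.79 and 10 CPM. LATS_KO 1 to 3 lay far below the controls and LATS_KO 5 and 6 above them, and YAP_OE did not overlap the controls. The differences of −0.97 ± 1.01 and −1.67 ± 1.07 did not pass the test (adjusted p = 0.61 and 0.27). Slc1a4, the neutral exchanger ASCT1, was at 0, 4.3, 5 and 2.11 CPM in TdTomato, 1.93 to 33.8 CPM in LATS_KO (median 5.35) and 16.2, 16.2, 19.6, 13.7 and 11.6 CPM in YAP_OE. Its YAP_OE difference of 2.44 ± 1.02 (adjusted p = 0.086) was 2.03 in the reduced fit (adjusted p = 0.0097). Slc1a5, the glutamine exchanger ASCT2, was at 0 to 0.958 CPM in TdTomato, 0 to 11.1 in LATS_KO and 2.63 to 3.61 in YAP_OE (differences of 2.56 ± 1.20 and 2.76 ± 1.24, adjusted p = 0.2 and 0.11).

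The Slc43 family held carriers of large neutral amino acids, and no member passed edgeR's test with all libraries and TMM factors. With RLE factors Slc43a2 was called higher in YAP_OE. The fit of only the groups compared called Slc43a2 higher and Slc43a1 lower in YAP_OE. DESeq2 and voom called Slc43a2 higher in both groups and Slc43a1 lower in YAP_OE, and voom called Slc43a3 higher in both groups. Slc43a2 (LAT4) had 0, 3.14, 2.22 and 1.44 CPM in the controls, 33.6, 35.4, 0, 13.5, 8.43 and 7.39 CPM in LATS_KO and 11, 11.5, 17.1, 21.8 and 8.27 CPM in YAP_OE. Only LATS_KO 3 lay within the control range. Its differences were 3.26 ± 1.17 and 3.02 ± 1.17 (adjusted p = 0.086 and 0.065), and without TdTomato 1 and LATS_KO 3 they were 3.12 and 2.62 (adjusted p = 0.0063 and 0.0044). Slc43a1 (LAT3) was at 9.76, 12.1, 9.85 and 7.23 CPM in TdTomato, at 1.95, 1.87, 0, 8.73, 11.5 and 8.89 CPM in LATS_KO and at 0.462, 2.63, 4.23, 1.47 and 1.1 CPM in YAP_OE. The YAP_OE libraries were all below the controls (−2.30 ± 0.97, adjusted p = 0.088, and −2.30 with adjusted p = 0.015 in the reduced fit). Slc43a3, a family member known as a purine base carrier, lies 73 kb away. It was at 8.91, 2.37, 1.99 and 1.68 CPM in TdTomato, 0 to 14.6 CPM in LATS_KO (median 11.4) and 4.99, 7.85, 6.96, 9.33 and 4.63 CPM in YAP_OE. It differed by 1.39 ± 0.89 and 0.86 ± 0.90 (adjusted p = 0.37 and 0.53), and by 2.53 and 1.74 in the reduced fit (adjusted p = 0.0016 and 0.0018).

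None of the proton-coupled Slc36 carriers and the remaining Slc38 members passed edgeR's test against the controls with all libraries, while voom called Slc36a1 lower in YAP_OE and Slc38a10 lower in both groups. Slc36a1 (PAT1), a proton-coupled carrier of small amino acids on lysosomes, was at 11.9, 56.8, 58.7 and 37.1 CPM in TdTomato, 6.22 to 48.5 CPM in LATS_KO (median 35) and 42.6, 43.9, 40.3, 37.7 and 26.5 CPM in YAP_OE. Slc38a10 was at 101, 174, 180 and 162 CPM in TdTomato, 86.5 to 161 CPM in LATS_KO (median 139) and 131, 144, 151, 144 and 109 CPM in YAP_OE. Slc38a9, the arginine sensor of the lysosome, was at 0, 7.83, 8.26 and 7.33 CPM in TdTomato, 0 to 10.1 CPM in LATS_KO (median 7.88) and 7.23, 7.34, 8.12, 6.54 and 6.31 CPM in YAP_OE. Slc38a7, a lysosomal glutamine and asparagine carrier, was at 19, 26.6, 23.8 and 13.8 CPM in TdTomato, 0 to 24.6 CPM in LATS_KO (median 20) and 26.6, 25.1, 26.7, 25.1 and 17.2 CPM in YAP_OE. The groups overlapped for these 4 genes, and their differences from the controls lay between −0.35 and 0.28 (adjusted p of 0.56 to 0.93). Slc38a6 was at 0, 3.7, 6.04 and 2.87 CPM in TdTomato, 0 to 9.63 CPM in LATS_KO (median 7.65) and 3.88, 3.63, 4.04, 3.43 and 3.8 CPM in YAP_OE. Against the controls it passed in the reduced fit, in LATS_KO (0.90, adjusted p = 0.036). Slc36a4 reached at most 5.86 CPM and passed no test.

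The 9 kept members without enough counts for the test were Slc6a2, Slc6a4, Slc7a3, Slc1a1, Slc1a3, Slc7a10, Slc7a13, Slc36a2 and Slc38a5. Slc6a2 and Slc7a10 reached 8.11 and 6.35 CPM, each in 1 of the 2 libraries that stood apart, and the other 7 stayed at or below 0.57 CPM. Among the 22 rows under 10 counts were the kidney and gut carriers Slc6a19 (9 counts) and Slc7a9 (7 counts), and Slc6a14 and Slc7a12 with 0 counts in all libraries.

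YAP_OE was then compared with LATS_KO directly. None of the 32 members passed the test, against 0.988% of all genes (0.498% higher and 0.490% lower), with a median of −0.52 for the members and −0.03 for all genes. At an unadjusted p under 0.05 there were 6 members, DESeq2 called 1 lower (Slc3a1), and voom called 6 higher and 13 lower. The shares of all genes at the unadjusted p and by these methods were not counted, so these counts do not set the members apart. The largest fitted differences were those of Slc3a1 (−2.40 ± 0.60, adjusted p = 0.072), Slc7a1 (−2.26 ± 1.00, adjusted p = 0.3) and Slc6a20b (1.91 ± 0.93, adjusted p = 0.38). No member had groups without overlap (6.71% of all genes had). In the reduced fit, in which 12.7% of all genes were called (5.56% higher and 7.17% lower), Slc1a4 was higher in YAP_OE by 1.58 (adjusted p = 0.036). Lower there were Slc3a1 (−2.60, adjusted p = 0.016), Slc6a12 (−1.41, adjusted p = 0.048), Slc7a2 (−1.19, adjusted p = 0.04), Slc38a4 (−1.17, adjusted p = 0.026), Slc38a6 (−1.06, adjusted p = 0.013) and Slc6a13 (−0.96, adjusted p = 0.015).

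Genes around the carriers were counted on lists. Of 20 genes of the amino acid response, the program that ATF4 drives when amino acids are short, 5 were higher in LATS_KO (Phgdh, Psat1, Aldh18a1, Vldlr and Stc2) and none lower, and 8 were higher and 2 lower in YAP_OE (medians of 0.78 and 1.56, against 0.13 and 0.17 for all genes). Beside these and the following counts stand 10% of all genes higher and 0.973% lower in LATS_KO, and 17.9% higher and 10.8% lower in YAP_OE. Phgdh, the first enzyme of serine synthesis, was at 0, 0.0552, 0 and 0.0479 CPM in TdTomato, 0.135 to 79.9 CPM in LATS_KO and 82.7, 30.2, 22.3, 38.1 and 77.3 CPM in YAP_OE (ratios of 599 and 1647, counting intervals 166 to 4951 and 456 to 13604, adjusted p = 0.0083 and 0.0027). Psat1, the next enzyme, rose by 5.50 ± 1.27 and 6.46 ± 1.33 (adjusted p = 0.014 and 0.0044), and Aldh18a1, which starts proline synthesis, by 3.91 ± 0.95 and 4.16 ± 0.98 (adjusted p = 0.018 and 0.0074). Vldlr, a lipoprotein receptor, was the list's only call between YAP_OE and LATS_KO (6.13 ± 0.68, adjusted p = 9.5e-04), and the mitochondrial serine enzyme Shmt2 fell by 1.73 in YAP_OE (SE 0.34, adjusted p = 0.0035).

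Of 11 tested amino acid carriers of other families, 1 was lower in LATS_KO and 5 in YAP_OE, and none was higher. Slc25a15, the mitochondrial ornithine carrier of the urea cycle, fell by 2.38 in YAP_OE (SE 0.40, adjusted p = 0.0019). Slc25a13, the aspartate-glutamate carrier citrin, fell by 1.90 (SE 0.37, adjusted p = 0.0036), and Slc25a44, the mitochondrial carrier of branched-chain amino acids, fell by 1.31 there (SE 0.25, adjusted p = 0.0031) and by 0.87 in LATS_KO (SE 0.24, adjusted p = 0.029). Of 10 tested genes of lysosomal amino acid sensing, Rragd, a Rag GTPase, rose in both groups (5.80 ± 1.31 and 8.0 ± 1.43, adjusted p = 0.013 and 0.0024). Lamtor2 and Lamtor4 of the Ragulator complex fell by 1.23 and 1.44 in YAP_OE (adjusted p = 0.03 and 0.034), and in the reduced fit both missed the test (adjusted p = 0.12 and 0.092). Tmem27 (collectrin), a membrane partner that SLC6 carriers need in kidney, was at 0 CPM in all 4 controls. It was at least 20.9-fold higher in LATS_KO and at least 40.5-fold higher in YAP_OE (adjusted p = 0.026 and 0.011).

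Markers of several cell types also differed between the groups, and their relation to the carriers was not tested. In bulk tissue fewer cells of a type and less RNA per cell cannot be told apart. The summed level of 6 hepatocyte markers was 92316 to 158257 CPM in TdTomato, 38475 to 166320 in LATS_KO and 72047 to 131168 in YAP_OE. Alb made up most of this sum in every library. Of the 6 markers, Tat was lower in LATS_KO, Tat and Cps1 were lower in YAP_OE, and none was higher. Their median log2 difference was −0.50 in LATS_KO and −1.24 in YAP_OE. The 5 periportal markers summed to 7512 to 12659 CPM in TdTomato, to 3249, 1825, 650, 8498, 10007 and 7751 CPM in LATS_KO 1 to 6, and to 341 to 1093 CPM in YAP_OE, where all 5 fell. The 5 pericentral markers summed to 1144 to 4723, 143 to 5514 and 288 to 2288 CPM, and none passed a test. Beside the higher members, the 6 cholangiocyte markers summed to 24.1 to 47.9 CPM in TdTomato, to 4377, 1918, 1317, 201, 91.4 and 128 CPM in LATS_KO 1 to 6 and to 3711 to 6183 CPM in YAP_OE, 4 of the 5 tested being higher in each group and Cftr at 0 in the controls. The 8 macrophage and monocyte markers summed to 3.97 to 14.4 CPM in TdTomato and 352 to 671 CPM in YAP_OE. In LATS_KO 1 to 6 they summed to 141, 826, 157, 431, 342 and 167 CPM, and all 8 were higher in both groups.

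The other marker lists were at lower levels. The 4 neutrophil markers summed to 0 to 0.794 CPM in TdTomato, 0 to 19.2 in LATS_KO and 1.37 to 3.29 in YAP_OE, with 2 and 1 of 4 higher. The 6 stellate cell and fibroblast markers summed to 0.0774 to 10.9, 0 to 19 and 11.7 to 61.5 CPM, with 1 and 5 of 6 higher and Col1a1 at 0 in the controls. The 5 endothelial markers summed to 13.2 to 39.1, 11.8 to 190 and 69.8 to 120 CPM, with 2 and 1 of 5 higher. The 4 lymphocyte markers summed to 0 to 0.958, 2.67 to 29.8 and 6.86 to 14.1 CPM, and the 1 tested member was higher in both groups, while Cd3e and Nkg7 were at 0 in the controls. The part of these cell types in the differences of the carriers was not tested.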

How the data were processed

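RNA from 15 mouse liver libraries was compared (4 TdTomato, 6 LATS_KO, 5 YAP_OE). The files deposited by the authors hold raw counts per gene as STAR lays them out. FastQC, Trimmomatic, STAR and the mm10 genome are named, per the submitters' processing notes, with versions not given in the sources used here. The reverse-strand column was used, because the forward column held 0.966% to 1.99% of strand-assigned counts. Lines that name no gene (14.2% to 92.5% of reads) stayed out of library sizes. In that layout a read with several matches counts toward no gene.

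From these counts, CPM were taken over TMM-scaled library sizes, and CPM per kb with the union of exons in GENCODE M21 (GRCm38). Genes were kept with filterByExpr (13055). Differences were tested two-sided by edgeR 4.0.16 quasi-likelihood fits in R 4.3.3, in 1 fit of all 15 libraries with group as the only term (12 residual degrees of freedom), with Benjamini-Hochberg adjustment over all genes and a threshold of 0.05. SE is the log2 change over the root of its F statistic. Against 0 control counts, a floor of 3 counts over the group gives a lower bound. With 1 to 3 counts an exact 95% interval of the ratio is given. Both cover counting error only.

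Values are given for members past a test or with a mean of at least 5 CPM in a group, and other members by range. Of the surrounding lists, up to 3 members with the smallest adjusted p per comparison are given, and all are named where 5 or fewer were called, except for a gene that is not reported here. Members and lists were chosen with earlier results of these data known. Alternatives were RLE factors, DESeq2 1.42.0, limma 3.58.1 voom with quality weights, other filters, the unstranded column, only the groups compared, a replicate block, the fit without TdTomato 1 and LATS_KO 3, and leaving out each library. In counts simulated for LATS_KO against TdTomato on the tested genes, 12% of 2-fold, 29.8% of 4-fold, 70% of 8-fold and 83.3% of 16-fold changes were recovered. No replicates agreed within sampling noise. RefSeq promoter windows were matched by symbol.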

Additional observations from a re-analysis of the deposited data

Results flagged for a closer look

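The cutoffs for a library far from the rest of its group give about 1 in 20 groups by chance for independent, normally spread values. These CPM include zeros and share libraries across genes, so their chance rate is not known. In 86 groups of member values tested, 13 such libraries were found. Of these, 7 concerned the libraries with the most unmapped reads. TdTomato 1 was at 0 CPM for Slc38a9 (7.33 to 8.26 in the other controls) and for Slc7a7 (3.1 to 3.59), and above the other controls for Slc43a3 (8.91 against 1.68 to 2.37 CPM) and Slc7a5 (10.8 against 0.953 to 1.77 CPM). LATS_KO 3 was at 0 CPM for Slc38a9 (6.48 to 10.1 in the other LATS_KO libraries) and Slc38a7 (17.6 to 24.6), and above them for Slc1a4 (33.8 against 1.93 to 10.9 CPM).

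The other 6 lay in well-mapped libraries. LATS_KO 2 was above its group for Slc38a1 (11 against 0 to 4.08 CPM) and Slc7a5 (25.1 against 1.68 to 5.33 CPM), and LATS_KO 1 for Slc6a20b (1.41 against 0 to 0.395 CPM). TdTomato 2 was above the other controls for Slc7a1 (0.331 against 0 to 0.0479 CPM). YAP_OE 4 was below its group for Slc38a2 (129 against 145 to 148 CPM) and YAP_OE 5 for Slc38a7 (17.2 against 25.1 to 26.7 CPM).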

How the results depend on the processing

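The 5 higher members of LATS_KO became 10 with DESeq2, 9 with voom, 8 in the reduced fit, 3 with the replicate block and 0 in the fit of only the groups compared, and the count of lower members (0) became 1 with DESeq2, 3 with voom, and 1 with either other filter. In YAP_OE the 6 higher members became 11 with DESeq2 and 11 with voom, and the 5 lower ones became 11 with voom and 8 both in the reduced fit and in the fit of only the groups compared. Between YAP_OE and LATS_KO, voom gave 6 higher and 13 lower, the reduced fit 1 higher and 6 lower, and DESeq2 1 lower, against 0 in each direction. Shares of all genes were counted only for edgeR's fit of all libraries and for the reduced fit. Member counts under the other settings are therefore not set against all genes. Leaving out each library in turn gave 3 to 7 higher and 0 to 0 lower in LATS_KO, 4 to 9 higher and 4 to 6 lower in YAP_OE, and 0 to 0 higher and 0 to 1 lower between them. Of the 16 calls, 9 held without each library in turn, 1 was lost with voom (Slc6a20b in LATS_KO, 2.34, adjusted p = 0.06), and none was lost with DESeq2, RLE factors, either filter, the unstranded column or the reduced fit. The fit of only LATS_KO and TdTomato tested 30 members and lost 3 calls. It left out Slc7a6 and Slc6a20b, which passed the filter only with the YAP_OE libraries. Voom reversed Slc7a6 between YAP_OE and LATS_KO (3.59, adjusted p = 5.6e-05). The cause was not tested.

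Replicate numbers did not pair the libraries: of 13 same-numbered pairs, 4 had deviations correlated above 0.1 (range −0.249 to 0.232), and 2 of 14 libraries correlated best with their own number. With the replicate block, 3 members were higher and 0 lower in LATS_KO, 7 higher and 4 lower in YAP_OE, and 0 either way between them. The block lost Slc38a1 and Slc6a20b in LATS_KO (adjusted p = 0.066 and 0.091) and Slc6a12 in YAP_OE (0.051).

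In TdTomato 1 and LATS_KO 3, 13 and 12 of the 32 tested members had 0 counts, 8 of them in both. At this depth and spread a member that missed the test was not shown to be alike between groups.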

Other observations

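Slc6a2, the noradrenaline carrier of nerve endings, had 73 counts, all in LATS_KO 3 (8.11 CPM). Slc7a10, the carrier Asc-1 of brain and fat, had 82 counts in the controls, at 6.35 CPM in the highest library, TdTomato 1, 0 in LATS_KO and 1 in YAP_OE. With the filters that tested all 41 members, Slc7a10 was called lower in LATS_KO and in YAP_OE. Both values lie in the libraries with the largest unmapped shares.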
